A study of Mus musculus with 6 samples.

Results

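The miR-144 and miR-451a cluster comprises a pair of microRNA (miRNA) hairpins on mouse chromosome 11 that are known from red blood cells. Its members were the entries of the count files named Mir144, Mir451, Mir451a or Mir451b, of any arm and strand. The rule found 4 of 1102 entries, namely the 5p and 3p arms of Mir144 and the 5p and 3p sides of Mir451, all on the sense strand. No entry matched Mir451b or an antisense read of these hairpins, and these were not analysed here. Small RNA was sequenced from male hearts of the inbred strain C57BL/6J at an age of 18 weeks. There were 6 libraries, numbered heart 1 to heart 6 after the labels, and n counts libraries. The labels do not tie each library to a named animal. The animals were wild type, no treatment is named, and all 6 libraries share strain, sex and age, so there is no contrast between groups. The labels call the tissue whole heart, whereas the extraction protocol names the tips of the ventricles, and they do not mention whether blood was flushed out.

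In background, both hairpins are transcribed together in erythroid precursors under the erythroid factor GATA1. miR-144 follows the usual route, in which Drosha frees the hairpin and Dicer cuts it into a duplex of a 5p and a 3p strand. miR-451a is the known exception: its stem is too short for Dicer, and the slicer protein Ago2 cuts the hairpin itself, after which the end is trimmed. Its mature strand therefore runs from the 5p side through the loop. Mature red cells have no nucleus but keep miR-451a, and in heart tissue it is often read as a sign of blood.

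The sequences below show this difference in shape. The mature miRNAs from RefSeq on GRCm38.p6 have the seed, bases 2 to 8, in capitals. miR-144-5p lies at chr11:78073010-78073032, miR-144-3p at chr11:78073047-78073066 and miR-451a at chr11:78073186-78073207, all on the plus strand. These 3 of the 4 entries matched a RefSeq mature miRNA base for base. The entry on the 3p side of Mir451, at chr11:78073206-78073227, matched none and is given in lower case throughout.
miR-144-5p: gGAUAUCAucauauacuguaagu
miR-144-3p: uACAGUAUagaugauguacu
miR-451a: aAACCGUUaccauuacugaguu
entry on the 3p side of Mir451: uuuaguaaugguaacgguucuc

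In the hairpins, the mature strands are in capitals, which shows the pair of strands of Mir144 on either side of the loop and the single strand of Mir451a.
hairpin Mir144: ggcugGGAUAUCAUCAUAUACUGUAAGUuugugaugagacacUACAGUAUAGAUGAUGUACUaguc
hairpin Mir451a: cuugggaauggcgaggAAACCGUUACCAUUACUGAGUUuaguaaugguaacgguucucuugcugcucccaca

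The predicted fold (RNAfold) placed none of the bases of either miR-144 strand in the terminal loop of 6 bases. In the Mir451a hairpin of 72 bases, miR-451a ran from base 17 to base 38. It had 17 of its 22 bases paired and covered all 4 bases of the predicted loop. All 17 paired with bases of the entry on the 3p side. Of 1559 mature miRNAs on the RefSeq hairpins that folded with 1 terminal loop, 2 covered the whole loop, miR-451a and miR-468-5p, or 0.128%. None of the other mature miRNAs in that table shared the seed of miR-451a, miR-144-3p or miR-144-5p. miR-101a-3p shares bases 2 to 7 with miR-144-3p, and is shown with its own seed in capitals.
miR-101a-3p: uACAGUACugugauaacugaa

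It stood at 3034 ± 216 CPM (counts per 1000000 counts of a library, SD, n = 6), 9.04-fold above miR-144-3p, and r with miR-144-3p was 0.03 over the 6 hearts.

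The Mir144 hairpin spans 66 bases, from 78073005 to 78073070, and the Mir451a hairpin from 78073170 to 78073241, with 99 bases between them. Both lie outside annotated protein-coding genes in GENCODE vM21. The nearest one, Eral1, ends 134 bases downstream on the minus strand, and Flot2 lies 12570 bases upstream. Mir451b is annotated on the minus strand at the same bases as Mir451a.

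**Figure D1:**
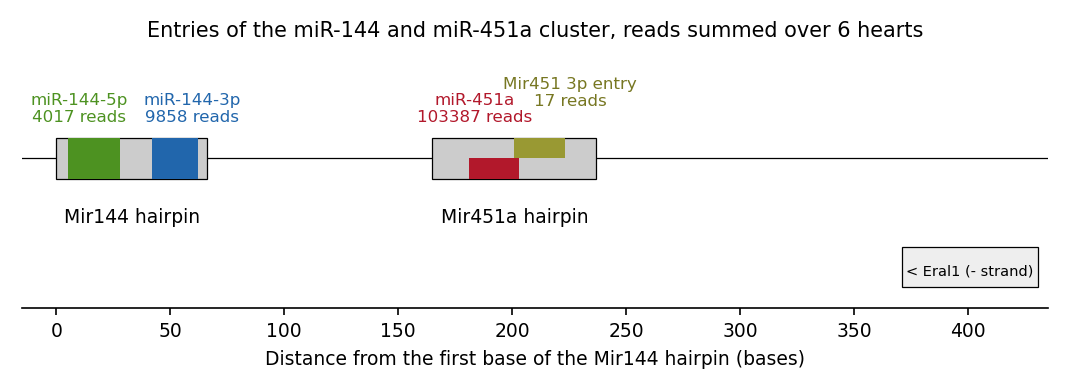
Map of the cluster by distance in bases from the start of the Mir144 hairpin, with hairpins in grey and count entries in colour. The 103387 reads of miR-451a compare with 17 reads of the entry opposite it, while Mir144 has 4017 reads on 5p and 9858 on 3p. Box heights carry no value (the Mir451 entries are offset to show the 2 bases they share), and only the end of Eral1 nearest the cluster is drawn.

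The libraries held between 3966171 and 6007325 counts, so 3 reads, the limit that a count of 0 allows, correspond to between 0.499 and 0.756 CPM. Each of the 15 pairs of libraries differed by more than counting noise (chi-square per degree of freedom between 53.4 and 301). The reads carry no molecular identifiers, so intervals cover counting error only. The labels do not tie each sample to a named animal, so p-values measure only the spread between these samples, which may be technical.

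miR-451a was the most abundant member in each of the 6 hearts. It stood at 5266 CPM in heart 1, 4473 in heart 2, 3328 in heart 3, 1907 in heart 4, 3713 in heart 5 and 2171 in heart 6. Hearts 1 and 2 were high and hearts 4 and 6 low, and the highest was 2.76 times the lowest. The mean of 3476 ± 1299 CPM (SD, n = 6) made it number 29 of 997 mature miRNAs. That place is loose: its neighbours miR-99b-5p (3867 ± 454 CPM) and miR-125b-5p (3357 ± 532 CPM) lie well inside its spread. miR-451a was called higher than 88.9% of the 352 other miRNAs tested (edgeR quasi-likelihood test).

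miR-144-3p, the guide strand of miR-144, stood at 425, 533, 289, 269.8, 272.5 and 225 CPM in hearts 1 to 6. Here heart 2 was the highest and heart 1 next, and the other 4 hearts lay close together. Its mean was 336 ± 118 CPM (rank 80), with a 2.37-fold range. miR-144-5p, the opposite strand, stood at 187, 164, 134, 88.0, 139.7 and 99.4 CPM. By these CPM its hearts fell in the same order as those of miR-451a, from heart 1 down through hearts 2, 5, 3 and 6 to heart 4. The range was 2.12-fold and the mean 135 ± 37.5 CPM (rank 112). For both strands the neighbours by rank again lay within the spread. All 4 entries together held 0.395% ± 0.143 of the counts. In bulk tissue, fewer red cells and less of these RNAs per cell cannot be told apart.

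**Figure D2:**
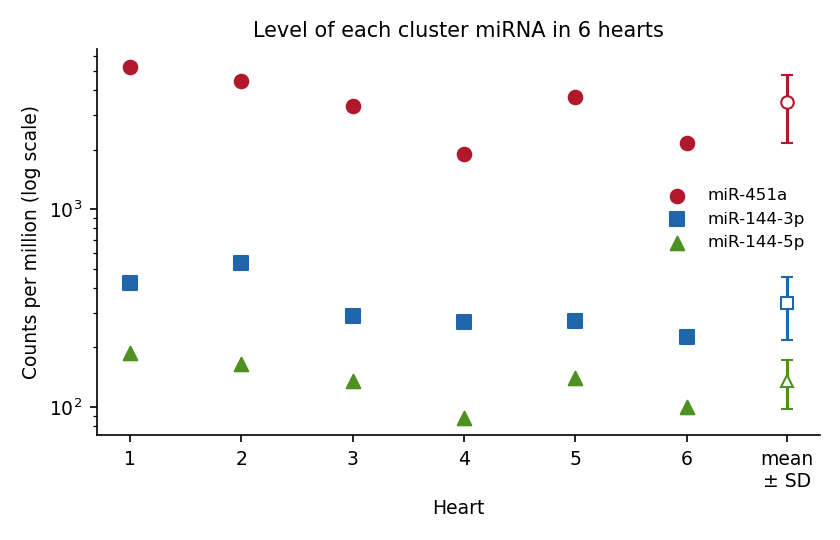
CPM of miR-451a, miR-144-3p and miR-144-5p in each heart on a log axis, with open symbols for the mean and bars for the SD over 6 hearts. miR-451a and miR-144-5p are highest in heart 1 and lowest in heart 4, whereas miR-144-3p is highest in heart 2 at 533 CPM and lowest in heart 6 at 225 CPM.

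The entry on the 3p side of Mir451 was close to absent. It had 5, 4, 0, 2, 2 and 4 reads in hearts 1 to 6. Over all libraries these 17 reads came to 0.576 CPM (exact Poisson 95% interval 0.335 to 0.922). By the bound of 3 reads used for a count of 0, heart 3 allows up to 0.710 CPM. There were 6082 reads of miR-451a for each read of this entry (exact binomial 95% interval 3798 to 10440). The 3p side thus gave 0.0164% of the reads of its hairpin. It did not pass the minimum mean of 10 reads, so 3 of the 4 members entered the tests of levels below.

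Mir144, in contrast, gave reads from both arms. The 5p arm held 30.5%, 23.6%, 31.7%, 24.6%, 33.9% and 30.7% of its reads in hearts 1 to 6. The 3p arm was higher in 6 of 6 hearts, with a log2 ratio of 5p to 3p of -1.29 ± 0.11 (SE, n = 6) or 2.44-fold more 3p (edgeR quasi-likelihood test, adjusted p = 3.05e-32). That p rests on a spread pooled over hairpins. Of 212 hairpins tested, 41% were called with more 3p and 89.6% in either direction, so a bias toward an arm is the common case. The rarer arm of miR-144 held 28.95% of the reads, which was place 28 of 212 by evenness, while the 3p side of Mir451 was at place 207.

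The arm share of miR-144 was not the same in all hearts. Hearts 2 and 4 gave less 5p, and their Wilson 95% intervals (22.2% to 24.998% and 22.4% to 26.9%) did not overlap those of the other 4 hearts, the lowest of which began at 28.6%. The mean was 29.2% ± 4.13 (SD, n = 6), and the counts differed by more than counting noise (chi-square test, adjusted p = 6.98e-20). Such variation was common: 50.4% of 119 hairpins tested were called. By the SD of the log2 ratio of its arms, 0.30, miR-144 was at place 58 of the 119.

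The 2 strands of miR-144 therefore stood in different relations to miR-451a. There were 28.2, 27.3, 24.8, 21.7, 26.6 and 21.8 reads of miR-451a per read of miR-144-5p in hearts 1 to 6. These ratios kept within a 1.302-fold range. Per read of miR-144-3p there were 12.4, 8.40, 11.5, 7.07, 13.6 and 9.65 reads, a 1.93-fold range with the low values in hearts 2 and 4. miR-451a exceeded miR-144-3p 10.2-fold (log2 ratio 3.35 ± 0.29, SE, n = 6, edgeR quasi-likelihood test, adjusted p = 1.25e-29), in 6 of 6 hearts. These are ratios of reads, and a ratio of molecules was not measured. The SE and p of the 10.2-fold excess rest on a spread pooled over the miRNAs tested. Over the 6 hearts, the SD of that log2 ratio was 0.36.

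**Figure D3:**
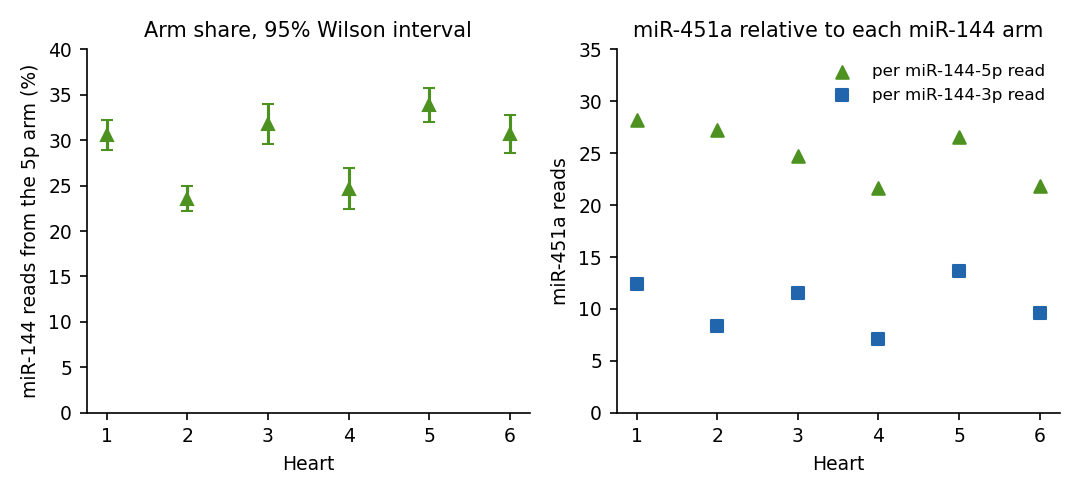
Left, percent of miR-144 reads from the 5p arm per heart with 95% Wilson intervals; right, reads of miR-451a per read of each miR-144 arm. Hearts 2 and 4 are low in the left panel (23.6% and 24.6%) and low for miR-144-3p in the right panel (8.40 and 7.07), while the ratios to miR-144-5p stay between 21.7 and 28.2.

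By this measure miR-144-5p was the steadiest partner of miR-451a. Among the 210 other miRNAs averaging 100 reads or more, the log2 ratio of miR-451a to miR-144-5p had the lowest SD over hearts, 0.16. miR-106b-5p (0.34), miR-15b-5p (0.35) and miR-144-3p (0.36) followed. Even so, the ratio to miR-144-5p differed between hearts by more than counting noise (chi-square test, adjusted p = 1.26e-06), as it did for 97.2% of 352 miRNAs.

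All 3 strands varied between hearts by more than counting allows, as did 68.8% of the 353 miRNAs tested (chi-square test). After TMM scaling, the CV (SD over mean) was 38.6% for miR-451a, 38.0% for miR-144-3p and 29.3% for miR-144-5p. These were places 8, 9 and 15 among the 211 miRNAs averaging 100 reads or more, whose median CV was 12.4%. Of the 12 other red cell miRNAs tested, 10 had a lower CV than these strands, from 5.71% for miR-185-5p to 23.6% for miR-106b-5p. miR-182-5p (106%) and miR-183-5p (121%) had a higher one. Among the leukocyte miRNAs listed, miR-142a-3p (38.8%, place 7) was above all 3 strands of the cluster, and the others lay below them.

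Earlier results of these data had already shown that the hairpins vary together, so the tests of r below describe a known outcome. Of the 3 pairs of members, miR-451a and miR-144-5p passed the threshold by r. On log2 CPM after TMM scaling, Pearson's r of miR-451a with miR-144-5p was 0.997 (exact permutation p = 0.00278, adjusted p = 0.00833). Spearman's rho was 0.94 (exact permutation p = 0.0167, adjusted p = 0.050). After that scaling miR-144-5p stood at 136.5 CPM in heart 3 and 136.1 in heart 5, whereas miR-451a stayed higher in heart 5. Hearts 4 and 6 lay at the greatest distance from the median miR-451a, and r over the other 4 was 0.99. With miR-144-3p, the r of miR-451a was 0.80 (exact permutation p = 0.0681, adjusted p = 0.0681). There rho reached 0.83 (exact permutation p = 0.0583, adjusted p = 0.0583), and leaving out the same hearts gave r = 0.82. By r with miR-451a, miR-144-3p was at place 15 of 210 miRNAs averaging 100 reads or more. Some miRNAs outside the cluster had a higher r with miR-144-3p than miR-451a had. Among them were miR-142a-3p (0.91), miR-15b-5p (0.91) and miR-142a-5p (0.90), picked after their values were seen and without a test. Between the arms of miR-144, r came to 0.81 (exact permutation p = 0.0583, adjusted p = 0.0681). Their rho was 0.89 (exact permutation p = 0.0333, adjusted p = 0.050), and with hearts 1 and 4 left out r was 0.89. All tests were two-sided, over 3 pairs. With 5 hearts the adjusted p of the first pair was 0.050 without heart 2 or heart 4 and 0.025 without any other heart, with r of at least 0.994.

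A slope asks how far each miRNA moved per unit of miR-451a on the log2 scale, where 1 is a proportional change and 0 is none. The slope of miR-144-5p was 0.74 ± 0.10 (SE, n = 6, 95% interval 0.52 to 0.95; edgeR quasi-likelihood test, adjusted p = 0.0126). Its interval lay below 1, so miR-144-5p changed less than in proportion to miR-451a. It was the only one of 352 miRNAs called with a positive slope, or 0.284%. With a negative slope edgeR called 0 and DESeq2 1, miR-375-3p (slope -3.00), which is named after its values were seen and had 73.2% of its reads in heart 4. Of all slopes, 42 of the 352 had an unadjusted p under 0.05 in edgeR. The call of miR-144-5p was lost with 5 hearts when heart 1, 2, 3 or 4 was left out, with adjusted p of up to 0.212, while the slope stayed between 0.70 and 0.75. miR-144-3p had a similar slope of 0.68 ± 0.18 (95% interval 0.26 to 1.09) and did not pass (edgeR adjusted p = 0.195).

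**Figure D4:**
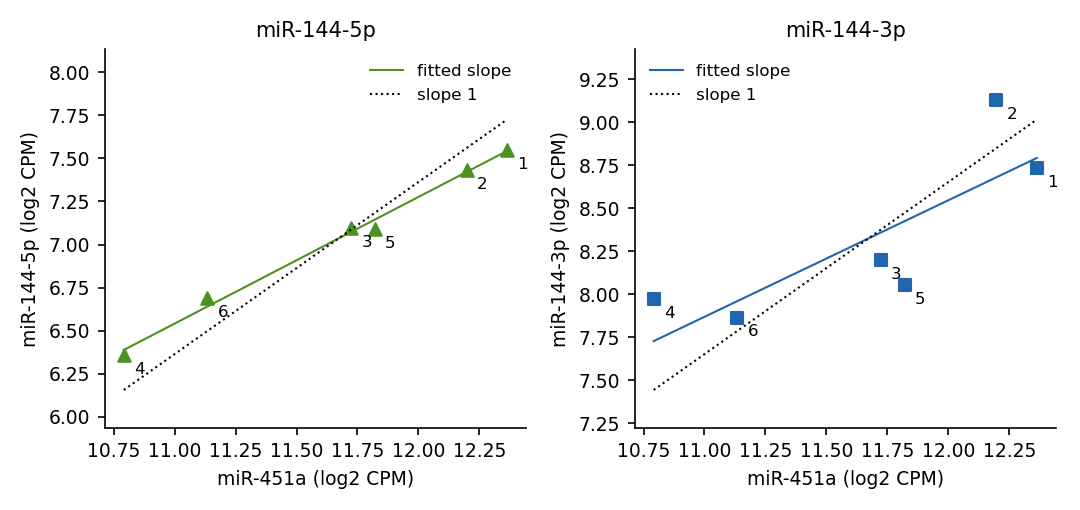
log2 CPM of miR-144-5p (left) and miR-144-3p (right) against miR-451a, 1 point per heart labelled with its number, with the fitted slope as a solid line and a slope of 1 dotted. The points of miR-144-5p lie along a line of slope 0.74, while hearts 2 and 4 lie above the fitted line of miR-144-3p and hearts 3 and 5 below it.

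Other miRNAs known from red cells and reticulocytes had slopes of both signs. Of 15 listed, 12 averaged 10 reads or more, and 0 of these passed the test with edgeR or DESeq2. Among all 352, edgeR called 0.284%, namely miR-144-5p, and DESeq2 called miR-144-5p and miR-375-3p. In edgeR, 6 of the 12 had an unadjusted p under 0.05, against 42 of all 352, and of those 6 slopes 4 were positive and 2 negative. Their median slope was 0.08, against 0.02 for all 352 miRNAs. No interval of the 12 held 1, and among all 352 only 25 did. The highest slopes belonged to miR-106b-5p (0.50, 95% interval 0.21 to 0.78), transcribed within Mcm7, and miR-15b-5p (0.45, 0.20 to 0.70), from the cluster in Smc4. miR-486-5p, shared by muscle and red cells and encoded in Ank1, had 0.37 (0.10 to 0.65). Its levels in hearts 1 to 6 were 164927, 163538, 158421, 113804, 122468 and 128683 CPM. Hearts 1 to 3 were thus high and hearts 4 to 6 low, whereas miR-451a was higher in heart 5 than in heart 3. The summed level of the 15 listed was highest in heart 1 (18.5% of counts) and lowest in heart 4 (13.3%), as for miR-451a. That sum averaged 16.2% of counts, and miR-486-5p alone averaged 14.2%.

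miR-93-5p, of the Mcm7 cluster with miR-106b, had a slope of 0.24 (95% interval 0.05 to 0.44). The intervals of 6 others held 0: miR-25-3p of the same cluster had a slope of 0.12, miR-16-5p 0.09, miR-15a-5p 0.07, miR-185-5p 0.01, miR-92a-3p -0.05 and miR-486-3p -0.19. miR-182-5p (-1.63) and miR-183-5p (-1.76), of a cluster known from sensory and epithelial cells as well as reticulocytes, were highest where miR-451a was lowest. In heart 4 they stood at 208 and 66.8 CPM, against at most 53.3 and 16.5 in the other 5 hearts. Neither passed the test as run here (edgeR adjusted p = 0.118 and 0.171). With no filter beyond 1 read both did, with 6 hearts (edgeR adjusted p = 2.41e-07 and 1.36e-05). miR-363-3p, miR-20b-5p and miR-96-5p, with 22, 16 and 14 reads in all, were too rare to test.

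Leukocyte miRNAs, the other blood cells, gave no common direction. Of 8 tested, 0 passed with edgeR or DESeq2, against 1 of all 352 with edgeR, and their median slope was 0.06. In edgeR 2 of the 8 had an unadjusted p under 0.05, against 42 of all 352. The 2 strands of miR-142a, a miRNA of blood cell lineages, had the highest slopes, 0.63 for miR-142a-3p (95% interval 0.13 to 1.14) and 0.40 for miR-142a-5p (0.08 to 0.71). The interval of miR-142a-3p held 1, as did that of miR-144-3p, and 25 of all 352 did. miR-142a-5p stood at 1667, 1468, 1187, 1229, 1048 and 906 CPM in hearts 1 to 6. miR-342-3p had a slope of 0.18, the myeloid miR-223-3p 0.14, miR-155-5p -0.02 and miR-223-5p -0.09. The lymphocyte miRNA miR-150-5p (-0.23) and miR-146a-5p (-0.26) had negative slopes. The summed level of the list kept between 0.321% and 0.405% of counts and was highest in heart 4, where the cluster was lowest.

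miRNAs of the tissue itself had slopes from -0.15 to 0.19, and all their intervals held 0. With edgeR, 0 of 11 passed, against 1 of all 352, and DESeq2 also called 0 of the 11. In edgeR 0 of the 11 had an unadjusted p under 0.05, against 42 of all 352. Intervals were wide, for example -0.28 to 0.67 for miR-199a-3p. The median slope was 0.16 for both the smooth muscle and the fibroblast miRNAs, above the 0.08 of the red cell list. Those of cardiac muscle (0.02) and endothelial miRNAs (-0.07) were below it. In cardiac muscle, miR-133a-3p had -0.01, miR-1a-3p 0.03, miR-208a-3p 0.06 and miR-499-5p 0.02. The endothelial miR-126a-5p had 0.01 and miR-126a-3p -0.15. In smooth muscle, miR-143-3p had 0.17 and miR-145a-5p 0.14, and of the fibroblast miRNAs miR-199a-3p had 0.19, miR-199a-5p 0.16 and miR-214-3p -0.0038. Their summed shares ran from 9.41% to 10.6% for cardiac muscle, 8.40% to 9.73% for endothelial, 6.56% to 11.3% for smooth muscle and 0.310% to 0.572% for fibroblast miRNAs.

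**Figure D5:**
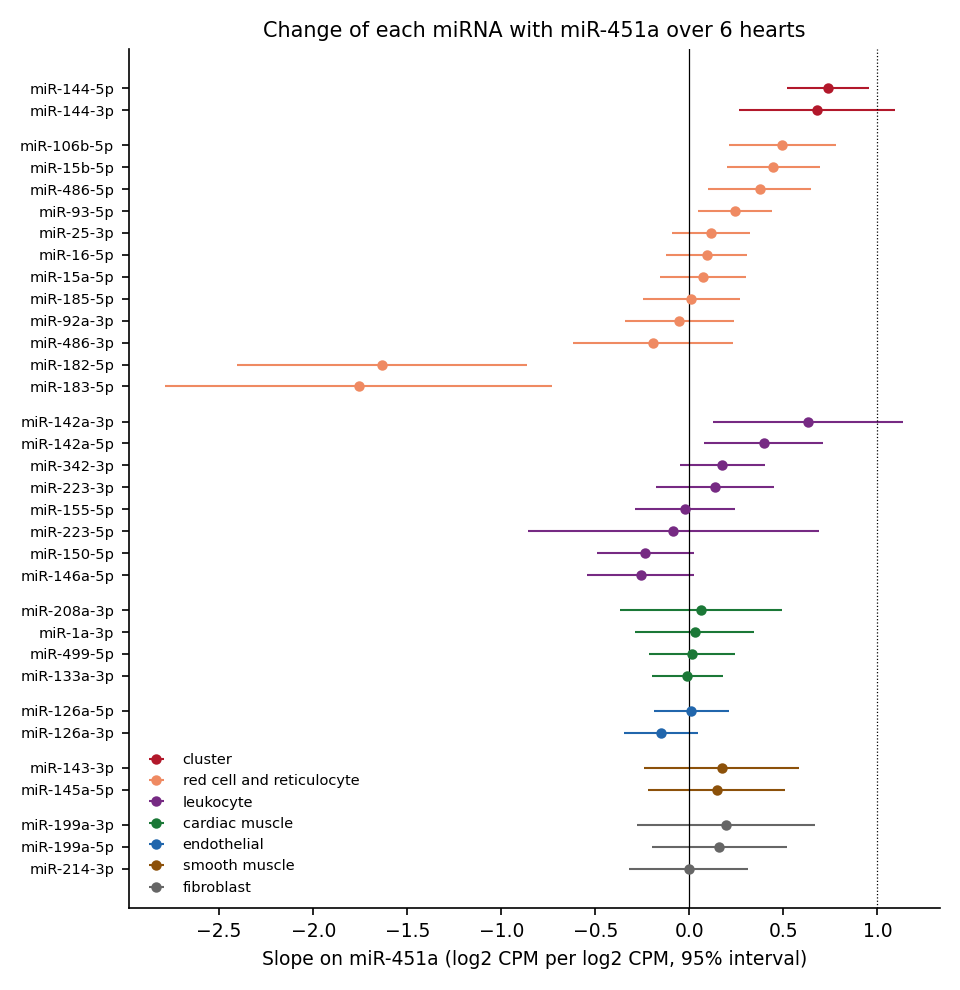
Slope of each listed miRNA on miR-451a with its 95% interval, coloured by list, with lines at 0 (no change) and 1 (a proportional change). Both arms of miR-144 lie near 0.7, and the other red cell miRNAs spread from -1.76 to 0.50. Leukocyte miRNAs spread from -0.26 to 0.63, the highest being miR-142a-3p, whose interval holds 1. Cardiac muscle, endothelial, smooth muscle and fibroblast miRNAs lie between -0.15 and 0.19, and all their intervals hold 0.

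Apart from the cluster, the 5 miRNAs whose pattern was most like that of miR-451a over 6 hearts were miR-193b-3p (r = 0.98), miR-93-5p (0.97), miR-29c-5p (0.95), miR-15b-5p (0.94) and miR-106b-5p (0.90). They were picked for this likeness among the 210 averaging 100 reads or more, whose median r was 0.10, so it is a description. All 5 changed less than the cluster, with ranges of 1.34-fold to 1.82-fold after TMM scaling, against 2.97-fold for miR-451a. miR-193b-3p, for example, stood at 57.5, 48.3, 44.2, 39.1, 51.3 and 38.7 CPM in hearts 1 to 6. The most opposed were 3p strands of the miR-30 family, miR-30c-1-3p (r = -0.98), miR-30d-3p (-0.95) and miR-30b-3p (-0.93). Other 3p strands of that family were not opposed in this way: miR-30a-3p had r = 0.27, miR-30e-3p -0.04 and miR-30c-2-3p -0.10. miR-30c-1-3p stood at 45.2, 49.5, 58.2, 82.7, 54.8 and 69.3 CPM.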

How the data were processed

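The 6 small RNA libraries of mouse hearts were used, 1 group with no contrast. The deposited files hold raw read counts per mature arm and locus, as a name, a location and a count, per the file headers. The submitters' processing notes name GRCm38, edgeR and DESeq but say nothing of their use. For the aligner, the counter and multi-mapping reads, the tool is not given in the sources used.

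Of 1102 entries, 76 were antisense. Where a hairpin is annotated on the strand of such an entry, its reads were counted there (39 entries). The other 37, at most 0.000705% of a library, were left out. Entries of 1 mature name were summed, which gave 997 miRNAs. CPM was computed on library totals of 3966171 to 6007325 counts, so 10 reads are 1.66 to 2.52 CPM. R 4.3.3, edgeR 4.0.16 (TMM, quasi-likelihood tests, with the library as a block for arms and pairs), DESeq2 1.42.0 and RNAfold 2.7.2 were used. Tests took miRNAs averaging 10 reads or more, log2 values a prior count of 1, and p-values were Benjamini-Hochberg adjusted over all features tested and called under 0.05, for arms with at least a 2-fold ratio. Chi-square tests compared counts with counting noise. On simulated data with 353 miRNAs, slopes of 1 or -1 were called for 92% of 100 changed miRNAs and 0.395% of the others. For pairs with a log2 ratio of 1 or -1, 99% of 100 changed and 3.56% of unchanged pairs were called. In these 2 simulations every miRNA had the same spread, whereas real miRNAs differed (CV 5.71% for miR-185-5p, 121% for miR-183-5p). Slopes of smaller size, as most listed miRNAs had, were not simulated. The 92% therefore does not tell how often such slopes would be called, and a listed miRNA that did not pass may still have one.

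Named miRNAs were the cluster, fixed lists of red cell, leukocyte, cardiac muscle, endothelial, smooth muscle and fibroblast miRNAs, and the 5 most and 3 least like miR-451a by r. Members and lists were chosen with earlier results of these data known. Alternatives were other scalings, filters, prior counts, DESeq2, no block, and each heart left out.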

Additional observations from a re-analysis of the deposited data

Results flagged for a closer look

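Of 38 sets of 6 values examined for 1 heart that stands apart from the other 5 (Dixon's ratio above its 95% critical value), 4 had such a heart, and chance alone gives about 1 in 20. None was a member of the cluster or a ratio between its members. miR-182-5p stood at 208 CPM in heart 4, against 24.8 to 53.3 in the others, and miR-183-5p at 66.8 CPM in heart 4, against 5.88 to 16.5. miR-199a-3p stood at 4899.9 CPM in heart 5, against 2563 to 3069.97 in the others. miR-223-5p stood at 1.998 CPM in heart 5, against 4.82 to 5.29, and had 128 reads in all.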

How the results depend on the processing

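The levels of the 3 strands, the ratios of the miR-144 arms and of miR-451a to miR-144-3p, the arm share and the spread kept their direction and their side of the threshold under every alternative run. This includes the fits with no replicate block, where the log2 ratio of the arms was -1.31 and that of miR-451a to miR-144-3p 3.37. Without 1 heart these log2 ratios ran from -1.36 to -1.20 and from 3.26 to 3.45. The r of miR-451a with miR-144-5p ran from 0.994 to 0.998 without 1 heart. The number of miRNAs called with a positive slope on miR-451a was 1 in the fit reported, 3 with no filter beyond 1 read, and 0 to 1 without 1 heart, where fewer samples enter. The number with a negative slope was 0 in the fit reported, 1 with DESeq2 (miR-375-3p, 73.2% of whose reads were in heart 4), 7 with no filter beyond 1 read, and 0 to 3 without 1 heart. The 3 called without heart 6 were miR-182-5p, miR-183-5p and miR-375-3p. With no filter, miR-144-3p was called as well (slope 0.68, edgeR adjusted p = 0.00193), as was miR-142a-3p, and miR-182-5p and miR-183-5p were among the 7 with a negative slope; the cause was not tested. For the ratio of miR-451a to miR-144-3p with no filter, edgeR's dispersion trend was fitted by loess, since the usual trend could not be fitted. Depth limits the entry on the 3p side of Mir451, with at most 5 reads in a library.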

Other observations

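The share of miR-144 reads from 3p was high in hearts 2 and 4, which were not alike in miR-451a. Among miRNAs averaging 100 reads or more, the log2 ratio of miR-144-3p to miR-144-5p had its highest r over the 6 hearts with miR-208a-3p (0.91), miR-320-3p (0.89) and miR-29c-3p (0.88). The cardiac miR-208a-3p, hosted by the myosin gene Myh6, stood at 1171, 1608, 1189, 1474, 879 and 1043 CPM in hearts 1 to 6, with hearts 2 and 4 the highest. Its r with miR-451a was 0.08. The lowest r with the arm ratio belonged to miR-9-5p (-0.95), miR-214-5p (-0.92) and miR-490-3p (-0.88). These were picked after their values were seen and carry no test.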
